A study of Mus musculus with 12 samples.

Results

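The genes described here encode the proteins of the cytosolic ribosome, in the ventral tegmental area (VTA) of the mouse midbrain at 3 ages. The rule for the probe sets uses their annotation and no measured value: each had to be assigned to exactly 1 gene, with a symbol made of Rpl or Rps and a number (plus the endings a, x, y, l or l and a digit), or be Rplp0, Rplp1, Rplp2 or Rpsa. This gave 104 probe sets of 48 genes among the 45037 probe sets tested. The large subunit was covered by 48 probe sets of 26 genes and the small subunit by 56 probe sets of 22 genes. A gene had 1 probe set in 24 cases and up to 6 otherwise. A further 110 probe sets listed a ribosomal protein gene together with other genes, mostly its pseudogenes, and were kept apart. By the suffix of their names, 34 of the 104 probe sets were designed for 1 transcript (_at), 27 for several transcripts of a gene (_a_at), 3 for transcripts shared between genes (_s_at), and 40 held probes that can also bind other sequences (_x_at).

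The cytosolic ribosome translates nuclear-encoded mRNAs. Its small subunit reads the codons, and its large subunit forms the peptide bonds and releases the growing chain through an exit tunnel. Most mRNAs of ribosomal proteins begin with a terminal oligopyrimidine (TOP) tract, a C at the cap followed by a run of C and T, through which the mTOR pathway controls their translation. Neurons keep ribosomes in the cell body and also in dendrites and axons.

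All mice were wild-type animals of the C57 strain (C57BL/6), with no transgene or treatment. There were 4 arrays from young mice (aged 2 months), 4 from mice of 10 months and 4 from mice of 18 months, an age taken as late middle age. Each array held RNA pooled from 5 mice, so that differences between single animals were not measured. Complete VTA tissue was dissected, so neurons and glia were measured together, and fewer cells of a type cannot be told apart from less RNA per cell. The values were log2 signals of Affymetrix arrays and have no counts behind them. The precision stated here rests on the number of arrays and on the spread between them.

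Arrays 3 and 4 of the young mice were nearly identical (Pearson r = 0.998 across probe sets, with 1 probe set differing by more than 1 on the log2 scale, against 85 to 4905 in the 17 other pairs of the same age). They were averaged and counted as 1 sample, which left n = 3, 4 and 4. All 10 dopaminergic markers were measured, and their summed log2 level was 15.92 to 16.10 in young, 16.14 to 16.38 in 10 months old and 16.24 to 16.46 in 18 months old mice. The sum of 5 neuronal markers was 14.56 to 14.92, 14.96 to 15.59 and 15.41 to 15.59, that of 5 microglial markers 12.12 to 12.62, 12.13 to 13.02 and 12.27 to 12.51, and that of 4 choroid plexus markers 7.76 to 10.01, 6.96 to 8.84 and 6.82 to 7.60. The sum of 5 astrocyte markers was 13.28 to 13.33, 13.32 to 13.84 and 13.57 to 13.84, without overlap between young and 18 months old mice, and that of 4 oligodendrocyte markers was 15.26 to 15.43, 15.28 to 15.46 and 15.27 to 15.39. A sum follows its brightest members, so single markers can go the other way. By the calling rule given further on, 2 dopaminergic markers were higher at 18 months and 2 lower (Foxa2, -0.61, and En1, -0.54). Of the neuronal markers 3 were higher and 1 lower (Rbfox3, -0.57). Of the microglial markers 2 were higher (P2ry12, 1.58, and Tmem119, 0.51) and 0 lower. Over all genes 5.76% were higher and 3.06% lower. The age groups also differed in their array controls. The 3′ minus 5′ log2 difference of the Actb and Gapdh controls was 3.29 to 3.63 in young, 1.69 to 2.44 in 10 months old and 1.64 to 2.17 in 18 months old mice. The mean log2 signal of the poly-A spike controls was 5.94 to 6.14, 6.25 to 6.46 and 6.604 to 7.358 at the same ages. Neither control, nor the dopaminergic or the neuronal sum, overlapped between young and older mice, so they cannot be told apart from age in these arrays, and the part of any of them in the results below was not tested beyond the fits that took a control as a covariate.

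The starts of the genes are shown first, because the TOP tract is the sequence feature that ribosomal protein mRNAs are known for. RefSeq promoter sequences (GRCm38.p6) were matched for 42 of the 48 genes. Rpl7, Rpl8, Rps4l, Rps14, Rps20 and Rps29 had no entry. The search was for a C, located within 10 bases of the annotated start and followed by at least 4 bases that were each C or T, on the transcribed strand only. Such a tract was present at 28 of 50 starts of these genes (56%), compared with 30.7% of the 32851 starts of all genes. A match is a description of these letters and not evidence of a functional TOP mRNA. The windows below hold 30 bases, 15 before the annotated start and 15 from it on, written 5′ to 3′ on the strand of the gene, with the tract in capitals where one was found. Where a start held several matches, only the longest is in capitals. The tracts of Rpl13a (14 bases) and Rpl27a (20 bases) run past the end of the window. The first group shows the 8 genes with a probe set that changed at 18 months.
Rpl4, chr9:64173372-64173401, + strand: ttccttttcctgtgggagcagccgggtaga
Rpl6, chr5:121204486-121204515, + strand: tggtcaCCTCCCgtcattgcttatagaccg
Rpl13a, chr7:45128731-45128760, - strand: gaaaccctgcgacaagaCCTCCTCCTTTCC
Rpl27a, chr7:109519180-109519209, + strand: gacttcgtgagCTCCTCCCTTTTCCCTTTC
Rpl41, chr10:128549154-128549183, - strand: cacacgggccggctcggaagtgacgacacc
Rps9, chr7:3704026-3704055, + strand: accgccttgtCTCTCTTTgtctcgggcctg
Rps24, first start, chr14:24490663-24490692, + strand: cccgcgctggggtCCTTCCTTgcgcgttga
Rps24, second start, chr14:24490738-24490767, + strand: tccggcgccgtagccatcatggtgagtctc
Rpsa, chr9:120127751-120127780, + strand: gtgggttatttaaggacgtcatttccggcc

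Of these 9 starts, 5 (55.6%) held a tract, and the 5 were divided between genes with a higher probe set (Rpl6, Rpl13a and the first start of Rps24) and genes with a lower one (Rpl27a and Rps9). The next windows belong to the 4 genes whose probe sets varied most between arrays of the same age, described further on, and were chosen after those values were seen.
Rpl37, chr15:5116598-5116627, + strand: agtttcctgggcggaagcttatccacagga
Rpl37a, chr1:72711245-72711274, + strand: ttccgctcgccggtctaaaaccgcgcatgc
Rps10, chr17:27635230-27635259, - strand: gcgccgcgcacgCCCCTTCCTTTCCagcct
Rps15, chr10:80292416-80292445, + strand: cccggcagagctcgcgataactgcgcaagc

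Among them, the window of Rps10 held a tract. The last windows show the paralog pairs with both genes on the array and in the promoter set, to let the start of each ribosomal protein gene be read beside that of its paralog.
Rpl22, first start, chr4:152324421-152324450, + strand: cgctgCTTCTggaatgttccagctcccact
Rpl22, second start, chr4:152325711-152325740, + strand: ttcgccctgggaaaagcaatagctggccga
Rpl22l1, chr3:28805493-28805522, + strand: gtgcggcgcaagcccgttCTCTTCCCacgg
Rpl39, chrX:37085208-37085237, - strand: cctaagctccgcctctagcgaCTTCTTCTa
Rpl39l, chr16:10170213-10170242, + strand: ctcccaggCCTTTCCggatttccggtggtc
Rps27, chr3:90213634-90213663, - strand: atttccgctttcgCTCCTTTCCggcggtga
Rps27l, first start, chr9:66946071-66946100, + strand: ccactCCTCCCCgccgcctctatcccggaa
Rps27l, second start, chr9:66946398-66946427, + strand: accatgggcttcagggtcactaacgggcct

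In each of these pairs, both genes had a start with a tract.

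The first comparison asked whether ribosomal protein mRNAs differed between 18 and 2 months old mice. Few did: single probe sets of Rpl6, Rpl4, Rpl13a and Rps24 rose, and probe sets of Rpsa, Rpl27a, Rpl41 and Rps9 fell, with changes of 1.44- to 1.92-fold. A probe set was called when limma gave an adjusted p-value (Benjamini-Hochberg over all 45037 probe sets) under 0.05 and the change exceeded 1.3-fold. By this rule 9 of 104 probe sets (8.65%) were called, 4 higher and 5 lower. Over all probe sets 7.46% were called, 4.55% higher and 2.91% lower, so the share among ribosomal protein genes was near that background. Of the 77 ribosomal protein probe sets brighter than the upper quartile of every array, 4 were called (5.19%), compared with 14.4% of the 10800 probe sets that were as bright. With 1 probe set per gene, the brightest, 4 of 48 genes were called (8.33%) beside 8.82% of all 18193 genes.

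The median log2 change of the 104 probe sets was -0.11, beside -0.06 over all probe sets, and 74 of the 104 changes were negative, compared with 26847 of 45037 in all. Among probe sets above the upper quartile the median was -0.10 for the 77 ribosomal protein ones and 0.09 for all 10800, of which 6276 had positive changes. With the 3′ minus 5′ or the poly-A control as a covariate the median of the 104 was 0.15 or 0.20. The median over all probe sets was not taken in these fits, so a shift particular to ribosomal proteins cannot be read from them. With no overlap between the samples of the 2 ages, 7 probe sets were higher at 18 months and 9 lower, compared with 10.4% and 13.1% of all probe sets (23.6% in either direction). An unadjusted p under 0.05 was found for 16 of the 104, and for 23.6% of all probe sets. By suffix, 4 of 34 _at, 3 of 27 _a_at, 0 of 3 _s_at and 2 of 40 _x_at probe sets were called. The count of called probe sets depended on single arrays. Leaving out young array 1 gave 1 call. Leaving out young array 2, array 4 of the 10 months old mice, or array 1 or 3 of the 18 months old mice gave 2 calls each. With array 1 at 10 months or array 4 at 18 months left out, 4 calls were made. The count was 7 without the sample made of young arrays 3 and 4, and 12 when array 3 at 10 months was left out. When each array was centred on its own median, 4 higher and 1 lower were called, and when either array control entered the fit as a covariate, 0 of 104 and 0 of all 45037 probe sets were called by limma, with 1 (3′ minus 5′ control) and 10 (poly-A control) ribosomal protein probe sets at an unadjusted p under 0.05.

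**Figure D1:**
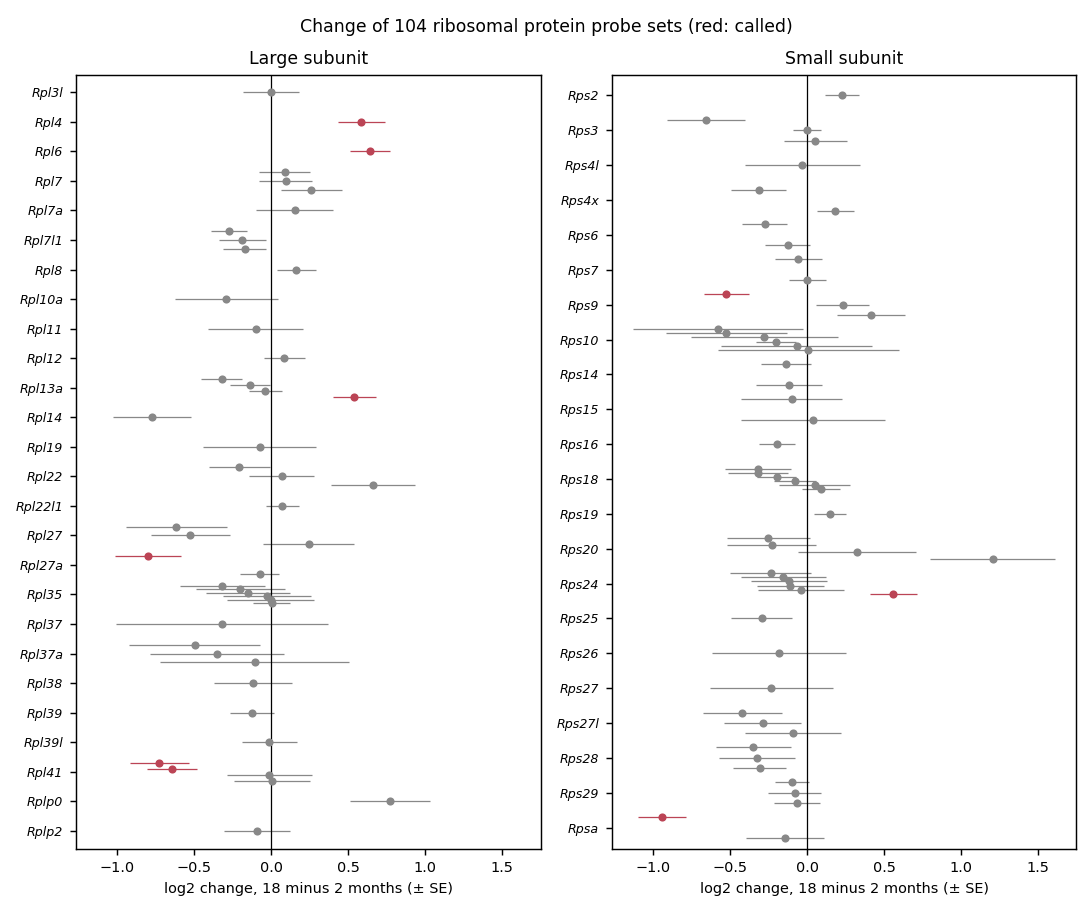
Log2 change between 18 and 2 months old mice (x axis, ± SE from limma, n = 4 and 3) of each of the 104 ribosomal protein probe sets, in rows by gene. Red points are the 9 called probe sets, 4 to the right of 0 and 5 to the left, and the grey points of the other probe sets lie mostly just left of 0.

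The large subunit had 3 of 48 probe sets higher and 3 lower, with a median change of -0.08. Rpl6, a protein of the large subunit, rose. Its probe set 1416546_a_at had log2 signals of 12.36, 12.65 and 12.86 in young, 13.24, 13.11, 12.90 and 13.18 in 10 months old and 13.36, 13.16, 13.33 and 13.20 in 18 months old mice. All samples of both older ages lay above the young samples. This rests on averaging young arrays 3 and 4, as young array 4 by itself read 12.92 and 10 months array 3 read 12.90. The change at 18 months was 0.64 ± 0.13 (SE, 1.56-fold, limma adjusted p = 0.0167), and it passed the same rule under 18 of 21 other settings.

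Rpl4, which lines the exit tunnel, was measured by 1425183_a_at. Its log2 signals were 12.20, 12.55 and 12.68 in young, 13.03, 12.99, 12.84 and 12.93 in 10 months old and 13.41, 12.82, 13.03 and 12.97 in 18 months old mice. Again no older sample reached down to the young ones, and the change at 18 months was 0.59 ± 0.15 (SE, 1.5-fold, limma adjusted p = 0.0398). The call was lost under 11 of 21 other settings.

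Rpl13a is a large subunit protein that is also known to leave the ribosome and repress translation of inflammatory mRNAs in myeloid cells. Its probe set 1417608_a_at had log2 signals of 12.31, 12.52 and 12.59 in young, 12.86, 12.91, 12.81 and 12.93 in 10 months old and 13.35, 12.72, 12.93 and 13.04 in 18 months old mice. The samples of the older ages were all higher, with a change at 18 months of 0.54 ± 0.14 (SE, 1.45-fold, limma adjusted p = 0.0401), and the call was lost under 12 of 21 other settings. The other 3 probe sets of the gene changed by -0.04, -0.14 and -0.32, and none was called.

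Rpl27a, a large subunit protein, fell in probe set 1437729_at. Its log2 signals were 8.85, 8.57 and 8.36 in young, 7.55, 8.63, 7.88 and 7.97 in 10 months old and 7.86, 7.72, 7.69 and 7.90 in 18 months old mice. The 18 months old samples lay close together and below every young sample, while 10 months array 2 was at the young level. The change at 18 months was -0.80 ± 0.21 (SE, 1.74-fold lower, limma adjusted p = 0.0422). The call was lost under 10 of 21 other settings, and the change turned to 0.38 (limma adjusted p = 1.0) under 1 more, with the 3′ minus 5′ control as a covariate. The second probe set of the gene, 1419799_at, was below the lower quartile of every array and changed by -0.08.

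Rpl41 encodes the shortest protein of the ribosome, and 2 of its 4 probe sets fell. The log2 signals of 1433530_at were 6.52, 6.37 and 5.89 in young, 5.54, 5.52, 5.89 and 5.63 in 10 months old and 5.14, 5.83, 5.42 and 5.73 in 18 months old mice, a change at 18 months of -0.73 ± 0.19 (SE, 1.66-fold lower, limma adjusted p = 0.0408). The log2 signals of 1454639_x_at were 8.01, 8.07 and 7.56, then 7.17, 7.51, 7.44 and 7.21, then 6.95, 7.49, 7.14 and 7.35, a change at 18 months of -0.65 ± 0.16 (SE, limma adjusted p = 0.0355). The calls were lost under 13 and 10 of 21 other settings. In both, the sample made of young arrays 3 and 4 was nearest to the 18 months old ones. The other probe sets of Rpl41, 1422623_x_at and 1455578_x_at, changed by -0.01 and 0.005, with mean log2 signals of 13.02 and 12.94 in young mice and 13.01 and 12.94 in 18 months old mice.

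The small subunit had 1 of 56 probe sets higher and 2 lower, with a median change of -0.12. Rps24, one of the genes mutated in Diamond-Blackfan anaemia, rose in 1455195_at. Its log2 signals were 6.94, 6.78 and 7.14 in young, 7.30, 7.11, 7.31 and 7.28 in 10 months old and 7.89, 7.56, 7.35 and 7.26 in 18 months old mice. The 18 months old samples ranged widely, but the lowest of them was still above the highest young one. The change was 0.56 ± 0.15 (SE, 1.47-fold, limma adjusted p = 0.0454), and the call was lost under 13 of 21 other settings. The other 5 probe sets of the gene changed by -0.04 to -0.23 and none was called.

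Rps9, a protein of the small subunit body, fell in 1434624_x_at. Its log2 signals were 12.95, 12.90 and 12.70 in young, 12.28, 12.66, 12.67 and 12.37 in 10 months old and 12.37, 12.17, 12.17 and 12.60 in 18 months old mice. The groups at 2 and 18 months did not overlap, and the change was -0.52 ± 0.14 (SE, 1.44-fold lower, limma adjusted p = 0.0481), lost under 14 of 21 other settings. The other probe sets of Rps9 had changes of the opposite sign, 0.42 for 1433689_s_at and 0.23 for 1426958_at, which were not called.

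Rpsa, a small subunit protein also known as the laminin receptor, showed the lowest adjusted p-value of the 104 probe sets. The log2 signals of 1416196_at were 4.84, 5.02 and 4.73 in young, 4.10, 4.65, 4.17 and 4.24 in 10 months old and 3.83, 4.23, 3.89 and 3.74 in 18 months old mice. All older samples were below the young ones, although young array 3 by itself read 4.63, just under the 4.65 of 10 months array 2. The change at 18 months was -0.94 ± 0.16 (SE, 1.92-fold lower, limma adjusted p = 0.00783). The call was kept under 18 of 20 other settings and lost with either array control as a covariate. The mean signal of this probe set over all arrays was under the lower quartile of signals on each array, and the deposited values carry no detection calls. The second probe set of Rpsa, 1448245_at, with a mean of 13.07 ± 0.20 (SD, n = 3) in young and 12.93 ± 0.37 (SD, n = 4) in 18 months old mice, changed by -0.14 (limma adjusted p = 0.787).

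**Figure D2:**
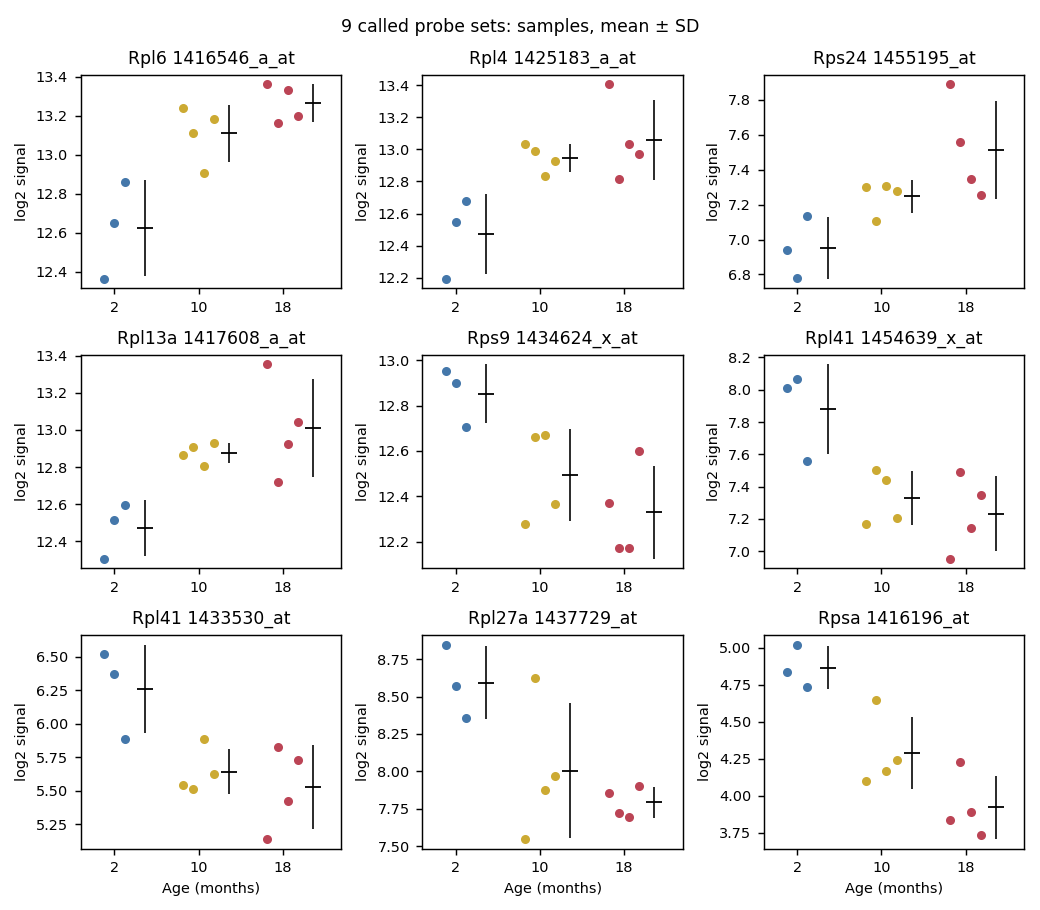
Log2 signal (y axis, own scale in each panel) of the 9 probe sets called between 18 and 2 months old mice, by age in months (x axis). Points are samples (n = 3, 4 and 4) and black marks are the mean ± SD. In all 9 panels the 18 months old samples lie entirely above or entirely below the young ones, with young arrays 3 and 4 averaged. In Rpl41 1433530_at, young array 4 by itself read 5.80, under the 5.83 of 18 months array 2.

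The highest and the lowest change among the probe sets not called at 18 months belonged to Rps20 and Rpl14. Rps20, in the head of the small subunit, had log2 signals in 1421935_at of 5.35, 5.88 and 5.83 in young, 5.60, 4.95, 6.90 and 6.14 in 10 months old and 6.55, 7.43, 6.29 and 7.29 in 18 months old mice. Its change of 1.21 ± 0.41 (SE) had a limma adjusted p of 0.0967, and the 10 months old samples spanned the whole range between the other ages. The other probe sets of Rps20 changed by 0.32, -0.23 and -0.25. Rpl14, a large subunit protein, had log2 signals in 1422128_at of 9.15, 8.64 and 9.12 in young, 8.43, 9.10, 7.84 and 8.63 in 10 months old and 8.52, 8.19, 8.18 and 7.90 in 18 months old mice. The change was -0.77 ± 0.26 (SE, limma adjusted p = 0.0907), and it turned to 0.31 (limma adjusted p = 1.0) with the 3′ minus 5′ control as a covariate.

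The probe sets of a called gene were compared with each other. The difference between the change of a called probe set and that of another probe set of its gene was examined in 18 pairs by an exact permutation test over the samples (two-sided, 35 relabelings, smallest possible p = 0.0286). The lowest adjusted p over the 18 pairs was 0.0858, reached by pairs at the smallest possible p, so no difference passed. A single pair could not pass by itself with 35 relabelings, so the outcome does not show that probe sets of a gene changed alike. The 2 called probe sets of Rpl41 were compared with each other in both directions. The called member of each pair had been picked for its change. Among the 22 ribosomal protein genes with at least 2 probe sets above the lower quartile, 14 (63.6%) had changes of both signs, close to the 61.3% of all 7151 such genes. The position of the probes within each transcript was not analysed here.

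**Figure D3:**
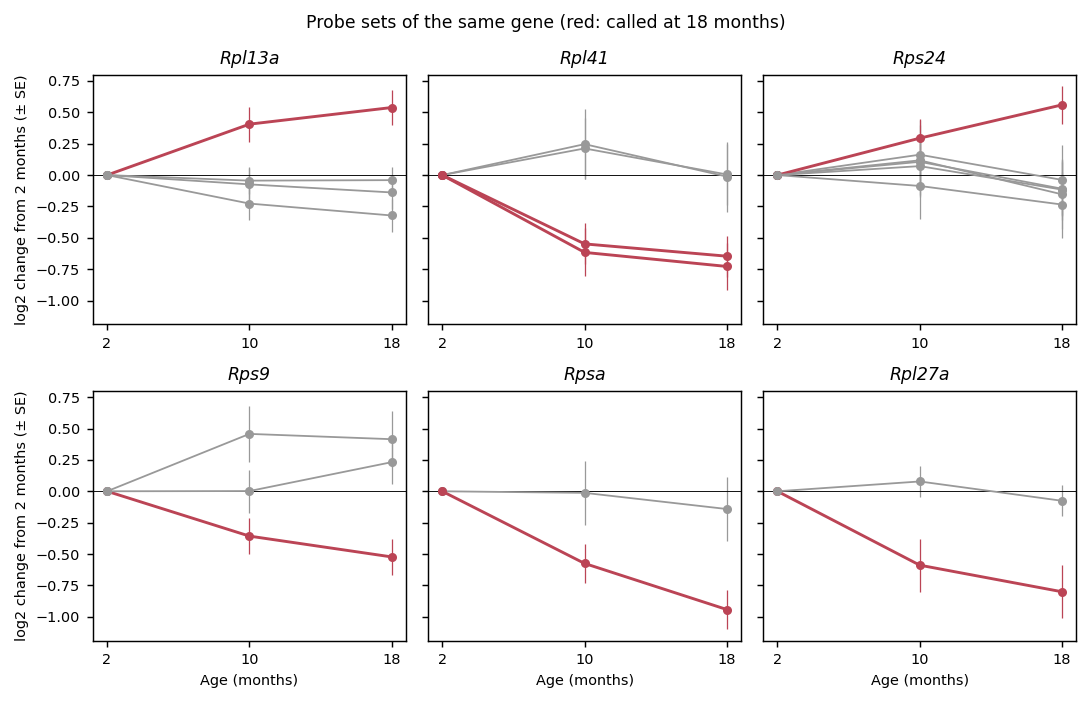
Log2 change from 2 months old mice (y axis, ± SE from limma) at 10 and 18 months (x axis) of every probe set of the 6 genes that had a called probe set and at least 1 more. Red lines are the called probe sets and grey lines the others, which stay nearer 0 or on the other side of it.

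The ribosomal protein genes were also counted by role at 18 months. With 7.46% of all probe sets called, groups this small would hold few calls at the background share, so nothing particular to a role is read from the counts. Of the stalk, which recruits translation factors, 3 of 4 genes were measured and 0 of 3 probe sets were called, with changes from -0.09 (Rplp2) to 0.77 (Rplp0). Rplp0, the base of the stalk, had log2 signals of 11.25, 11.60 and 11.99 in young, 12.66, 12.62, 11.89 and 12.57 in 10 months old and 12.82, 12.01, 12.67 and 12.02 in 18 months old mice. All 18 months old samples were above the young ones, the lowest by little, and the adjusted p of limma was 0.0963. Young array 4 by itself read 12.010, level with the 12.009 of 18 months array 2. For the 5S particle, through which ribosomal stress reaches p53, Rpl11 was measured and changed by -0.10 (limma adjusted p = 0.882). Around the exit tunnel 1 of 9 probe sets was called (Rpl4), with the others down to -0.32 in Rpl35. In the small subunit head 0 of 30 probe sets were called, with changes from -0.66 in Rps3 to 1.21 in Rps20. Of the genes mutated in Diamond-Blackfan anaemia 1 of 33 probe sets was called (Rps24), with changes down to -0.62 in Rpl27. For the 0 calls in the stalk, the 5S particle, the head and the paralogs below, the whole set of 104 probe sets had 16 at an unadjusted p under 0.05, beside 23.6% of all probe sets.

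Paralogs were of interest because they can replace their partner in the ribosome. Of 20 probe sets of paralog genes 0 were called, with changes between -0.42 in Rps27l and 0.66 in Rpl22. Rpl22l1, the paralog of Rpl22, was among the least variable, with means of 12.84 ± 0.15, 12.76 ± 0.11 and 12.91 ± 0.10 (SD, n = 3, 4 and 4) at 2, 10 and 18 months. The 3 probe sets of Rpl22 changed by 0.66, 0.07 and -0.21 at 18 months, and the most positive, 1448398_s_at, had a limma adjusted p of 0.167. The 3 probe sets of Rpl7l1 changed by -0.17 to -0.27 and those of Rpl7 by 0.09 to 0.26, none of them called. Rps4x had changes of 0.18 and -0.31 and Rps4l of -0.03. Rpl3l, whose partner is not among the 48 genes, is known from muscle, and its probe set was below the lower quartile of every array and changed by -0.002.

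Between 10 and 2 months old mice 0 of 104 probe sets were called by limma, beside 1.36% of all probe sets. An unadjusted p under 0.05 was found for 10 of them (15.6% of all probe sets), and the smallest adjusted p was 0.0904 (Rpl6, 0.49). The median change was -0.002, with 52 positive and 52 negative changes, from -0.65 in Rps25 to 0.82 in Rplp0. Leaving out 10 months array 2, 10 months array 3, or young arrays 3 and 4 gave 2 calls each. Between 18 and 10 months old mice 0 were called as well, beside 0.00222% of all probe sets, with 2 at an unadjusted p under 0.05 (5.06% of all probe sets) and a smallest adjusted p of 0.847. The median change was -0.12, and 83 of 104 changes were negative, compared with a median of -0.03 and 26332 negative changes among all 45037 probe sets, and a median of 0.03 among all those above the upper quartile. The changes ranged widely, with Rpl37 lowest (-0.54) and Rps20 highest (0.997). The 2 comparisons with young mice share their control samples.

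The ribosomal protein signals also differed between arrays of the same age. The median residual SD of the 104 probe sets was 0.31 on the log2 scale, compared with 0.20 over all probe sets, and 0.37 compared with 0.25 among the probe sets above the upper quartile. The probe sets moved together: on 10 months array 3, 83.7% of them were below the mean of their age and their median deviation was -0.44, while on 10 months array 2 this share was 11.5% and the deviation 0.28. At 18 months, array 1 had a deviation of 0.31 and array 3 of 0.12, whereas arrays 2 and 4 had -0.17 and -0.20, with 78.8% and 77.9% of probe sets below the mean of the age. The young arrays ranged from -0.07 to 0.12. Over all probe sets the deviation of an array ranged from -0.07 to 0.05, and the share below the mean from 41% to 59.8%. RMA equalises the distribution of signals over arrays, which by itself holds the deviation over all probe sets near 0.

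The 110 probe sets that also list other genes, which the choice of members did not use, had deviations of -0.37 on 10 months array 3, 0.28 on 10 months array 2, and 0.23, -0.16, 0.12 and -0.16 on 18 months arrays 1 to 4. The 156 probe sets of mitochondrial ribosomal proteins, a separate ribosome that translates the mitochondrial genome, had deviations of the same sign on these arrays, -0.27 and 0.16 on the same 10 months arrays and 0.12, -0.08, 0.12 and -0.15 at 18 months. The control probe set for the middle of 18S ribosomal RNA read 12.95 and 13.19 on 10 months arrays 2 and 3 and 13.04 and 12.91 on 18 months arrays 2 and 4, below the 13.53 to 13.91 of the other arrays. Of these 4 arrays 3 had low ribosomal protein signals and 10 months array 2 had high ones. The neuronal marker sum was 15.59 on 10 months array 3 and 14.96 on array 2, the microglial sum 12.13 and 13.02, and the astrocyte sum 13.84 and 13.37. The oligodendrocyte sum was 15.28 on 10 months array 3 and 15.46 on array 2. At 18 months the astrocyte sum was 13.63, 13.68, 13.57 and 13.84 on arrays 1 to 4. In the same order the neuronal sum was 15.50, 15.41, 15.41 and 15.59. The microglial sum was 12.44, 12.27, 12.51 and 12.32, and the oligodendrocyte sum 15.39, 15.27, 15.39 and 15.30. On arrays 1 to 4 the dopaminergic sum was 16.34, 16.17, 16.38 and 16.14 at 10 months. At 18 months it was 16.34, 16.46, 16.24 and 16.40. The part of these controls and markers in the result was not tested.

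**Figure D4:**
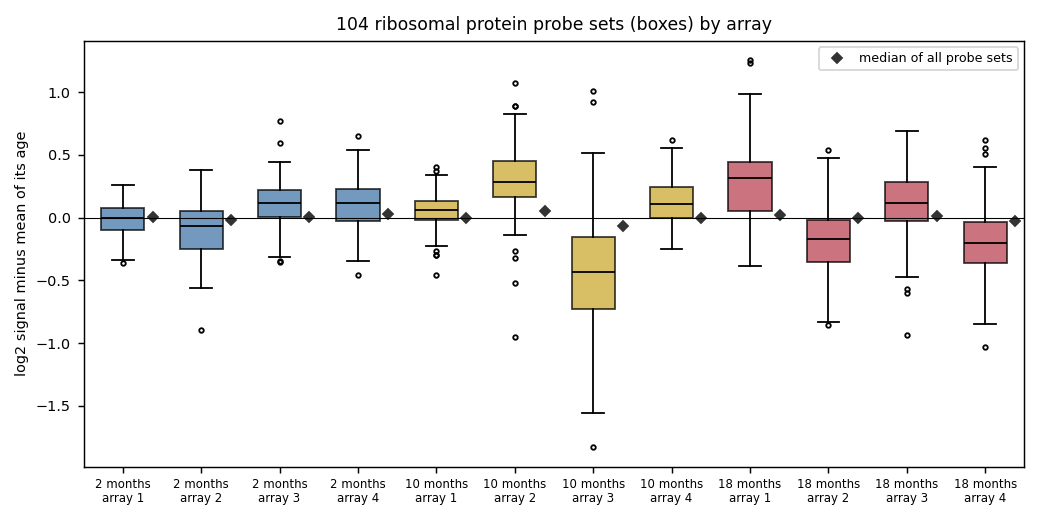
Log2 signal minus the mean of its age (y axis) for the 104 ribosomal protein probe sets on each of the 12 arrays (x axis, coloured by age). Boxes give the median and quartiles, whiskers reach up to 1.5 times the box height, circles are probe sets beyond them, and diamonds are the median of all 45037 probe sets. The diamonds, which RMA holds near 0, lie between -0.07 and 0.05, and the ribosomal protein median ranges from -0.44 to 0.31.

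The 4 genes with the largest spread within ages are described by their most variable probe set. They were named after their values were seen, and for them no test is given. Rpl37, a small zinc-binding protein of the large subunit, had a residual SD of 1.08 in 1438291_x_at. Its log2 signals were 9.50, 8.36, 10.03 and 9.80 on young arrays 1 to 4, 9.88, 10.55, 7.65 and 9.84 on 10 months arrays 1 to 4, and 10.19, 8.08, 9.39 and 8.09 on 18 months arrays 1 to 4. The lowest readings came from array 2 of the young, array 3 of the 10 months old and arrays 2 and 4 of the 18 months old mice. Rpl37a, a different zinc-binding protein, had a residual SD of 0.96 in 1416217_a_at, with 9.10 on 10 months array 3 and 11.45 on array 2. It read 9.68 and 9.45 on 18 months arrays 2 and 4 compared with 11.71 and 11.07 on arrays 1 and 3. In Rps10, a protein of the small subunit head, 1416719_a_at had a residual SD of 0.92. The other probe sets of the gene had 0.86, 0.76, 0.74, 0.61 and, in the dim 1436384_at, 0.16. Probe set 1416719_a_at read 9.14 on 10 months array 3 and 9.32 and 9.33 on 18 months arrays 2 and 4, with 10.82 or more on the other 10 and 18 months arrays. Rps15, which lies near the decoding site, had a residual SD of 0.73 in 1416089_at, and read 10.05 on 10 months array 3 and 10.42 and 10.55 on 18 months arrays 2 and 4. Array 3 at 10 months and arrays 2 and 4 at 18 months were low for all 4 genes.

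Single probe sets of other ribosomal protein genes varied little over the same arrays, which does not hold for every probe set of these genes. Rps3, which forms part of the mRNA entry channel, had a residual SD of 0.08 in 1435151_a_at, with means of 13.35 ± 0.06, 13.39 ± 0.08 and 13.35 ± 0.08 (SD, n = 3, 4 and 4) at 2, 10 and 18 months, while 1455600_at and 1447563_at of the same gene had residual SDs of 0.38 and 0.30. Rps19, the gene most often mutated in Diamond-Blackfan anaemia, had a residual SD of 0.11, and its means were 12.30 ± 0.05, 12.52 ± 0.16 and 12.45 ± 0.05. Rpl13a in 1455485_x_at read 13.65 on both 10 months array 3 and 18 months array 2, and 13.96 on 18 months array 1, with a residual SD of 0.11, and it is not the probe set of that gene that rose at 18 months. Rpl22l1 had 0.12. On 10 months array 3, Rpl22l1 (12.90) and Rps19 (12.63) were above the mean of their age.

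**Figure D5:**
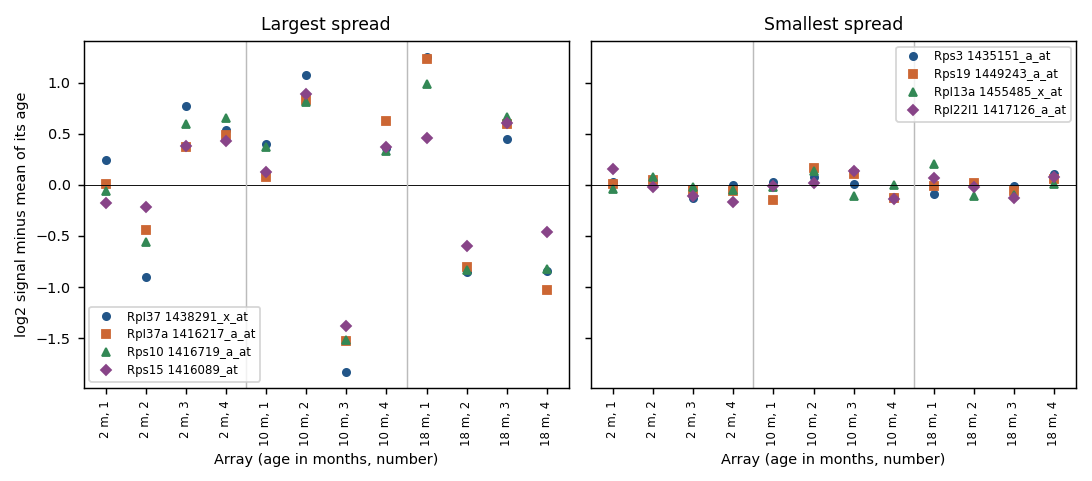
Log2 signal minus the mean of its age (y axis) on each array (x axis, age in months and array number) of the probe set with the largest residual SD in each of the 4 most variable ribosomal protein genes (left, 0.73 to 1.08) and of the probe set with the smallest in each of 4 genes (right, 0.08 to 0.12), taken from probe sets above the lower quartile. The probe sets on the left are low together on 10 months array 3 and 18 months arrays 2 and 4, and those on the right stay near 0 on all 12 arrays.

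Some ribosomal protein genes and probe sets lie outside the naming rule. Rps3a1, a small subunit protein, rose by 0.48 ± 0.11 (SE, limma adjusted p = 0.0255) at 18 months, while Fau, which encodes the small subunit protein Rps30, changed by -0.09. Of the 110 probe sets with several genes 4 (3.64%, beside 7.46% of all probe sets) were called at 18 months, and they were named because they were so few. Those listing Rps2 (0.70, limma adjusted p = 0.0155), Rpl10 (0.63, limma adjusted p = 0.0321) and Rps19 (0.63, limma adjusted p = 0.0374) rose and 1 listing Rpl17 fell (-0.85, limma adjusted p = 0.0268), and each also lists pseudogenes or predicted genes. The Rps2 probe set also rose at 10 months (0.67, limma adjusted p = 0.0488). The probe set of Rps2 that lists no other gene, 1431766_x_at, changed by 0.23 at 18 months (limma adjusted p = 0.241). For mitochondrial ribosomal proteins 8 of 156 probe sets rose and 4 fell at 18 months (7.69%).

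The factors that work on the ribosome were counted with 1 probe set per gene, beside the 5.76% of genes higher and 3.06% lower at 18 months. Bright probe sets were called more often: above the upper quartile the share was 14.4%, with a median change of 0.09. Each change given for these lists comes from the brightest probe set of the gene, and other probe sets of the gene were not described. The calls in these and the following lists were not followed gene by gene under the other settings. With either array control as a covariate all of them were lost, as no probe set was called in those fits. Of 33 translation initiation factors 7 rose and 0 fell (21.2% called), with a median change of 0.19. Eif3m, a subunit of the scaffold factor eIF3, rose by 0.89 ± 0.17 (SE, limma adjusted p = 0.0116). Eif2b1, a subunit of the exchange factor that recharges eIF2, rose by 0.84 ± 0.17 (SE, limma adjusted p = 0.0142), and Eif2s2, the beta subunit of eIF2 itself, by 0.82 ± 0.18 (SE, limma adjusted p = 0.0202). Eif2b1 had also risen at 10 months (0.79, limma adjusted p = 0.0478). Of 11 genes in a list of elongation factors, their regulators and release factors, 0 were called higher and 2 lower. The 2 were Eef1d, an exchange factor of eEF1A (-0.93, limma adjusted p = 0.0147), and Eef2k, the kinase that inhibits eEF2 (-0.51, limma adjusted p = 0.0487). The median change of the 11 was 0.06, with 7 positive and 4 negative changes. Eef1a1 (0.37, limma adjusted p = 0.0384) missed the call only through the fold threshold.

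Of 21 genes in a list of mTOR pathway members and other regulators of ribosomal protein or TOP mRNAs (among them Larp1, Tia1, Cnbp and Myc), 1 rose and 2 fell at 18 months. Tsc2, a repressor of mTOR complex 1, rose by 1.3 ± 0.29 (SE, limma adjusted p = 0.0221), from a mean log2 signal of 7.46 in young to 8.76 in 18 months old mice. Eif4ebp2, a repressor of cap-dependent initiation that is abundant in brain, fell by 0.53 (limma adjusted p = 0.0423) and Deptor, an inhibitor of mTOR, fell by 0.47 (limma adjusted p = 0.0259). Of 43 ribosome biogenesis genes 6 rose and 3 fell (20.9% called, beside 8.82% of all genes and 14.4% of all probe sets above the upper quartile). The largest rises were in Emg1 (0.87, limma adjusted p = 0.00811), a methyltransferase of 18S ribosomal RNA, Polr1b (0.83, limma adjusted p = 0.0118), a subunit of RNA polymerase I, and Nop14 (0.83, limma adjusted p = 0.0166), which acts in small subunit assembly. The falls were in Gnl2 (-0.90, limma adjusted p = 0.0237), a GTPase of large subunit assembly, Nop56 (-0.63, limma adjusted p = 0.0200), a core protein of box C/D particles, and Tsr1 (-0.61, limma adjusted p = 0.0398), a factor of late small subunit assembly. At 10 months Wdr12, a large subunit assembly factor, was the called gene of this list (0.55, limma adjusted p = 0.0492). The lists were described by their counts, and no test compared them with each other or with the ribosomal proteins.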

How the data were processed

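RNA from the VTA of 2, 10 and 18 months old mice was hybridised to 12 Affymetrix GeneChip mouse genome arrays (two-cycle labelling of RNA pooled from 5 mice per array). The authors normalised the arrays by RMA, and the deposited values are log2 signals between 2.40 and 14.70. The submitters' notes name RMA and limma 3.4.5. RMA equalises the distribution of probe signals over arrays, so a change shared by most genes is largely removed. The 104 probe sets were selected through the platform annotation, and 64 control probe sets of 45101 were left out of tests. Of those tested, 34945 had 1 gene, 932 several and 9160 none. All 104 matched the RefSeq gene table, and 98 had a mean above the highest lower quartile of any array.

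The 3 ages were fitted together in limma 3.58.1 (R 4.3.3) with no covariate and no filter, and the thresholds (adjusted p under 0.05, over 1.3-fold) follow the study's methods. Arrays are not stated to come from separate cohorts, and p-values measure the spread between these pools. The fit was tested on simulated data with noise drawn independently for each probe set. Those data lack the joint movement of ribosomal protein signals between arrays, so they say nothing about its effect. Members and gene lists were chosen with earlier results of these data known. Described by name were all called members, the uncalled members with the highest and lowest change at 18 months, the other probe sets of those genes, the ends of each role group's range and, in the other lists, each called gene or the 3 with the largest change in each direction. Starts shown were those of called genes, of the most variable members and of paralog pairs. The residual SD of the fit gave the spread within ages. Alternatives were array centring, covariates, filters, priors, other units and leaving out each array.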

Additional observations from a re-analysis of the deposited data

Results flagged for a closer look

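Of 40 groups of 4 arrays examined for the probe sets described by name, 1 held an array far from the others of its age, about the share that chance gives (1 in 20 groups). For Rps24 1455195_at, 10 months array 2 read 7.11 on the log2 scale, and the other 3 arrays of that age lay between 7.28 and 7.31, so the gap was 0.867 of the whole range. The same array had the highest median deviation of ribosomal protein probe sets at its age (0.28).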

How the results depend on the processing

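The number of ribosomal protein probe sets called between 18 and 2 months, 9, was 2 with 12 separate arrays and the replicate number as a block, 5 after median centring (4 higher, 1 lower), 0 with the 3′ minus 5′ control and 0 with the poly-A control as a covariate, 4 among probe sets with no suffix and 4 with 1 probe set per gene; leaving out arrays gave 1 to 12. The last 2 count fewer units; for the others the cause was not tested. The median change at 18 months was 0.15 with the 3′ minus 5′ control and 0.20 with the poly-A control as a covariate. At 10 months it was 0.24 with the 3′ minus 5′ control. For all probe sets no median was taken under these settings. Leaving out arrays gave -0.20 to -0.03 at 18 months and -0.09 to 0.15 at 10 months. The 0 calls at 10 months became 0 to 2 when arrays were left out (2 also without young arrays 3 and 4, an alternative chosen after seeing the data), and those between 18 and 10 months stayed 0 under all settings run. Reversed under the 3′ minus 5′ covariate were Rpl27a (0.38) and Rpl14 (0.31). Over the 11 probe sets described by name, 134 values kept direction and side of the threshold, 88 kept direction and lost the call, and 6 gained it. Same-numbered arrays did not deviate together (4 of 12 pairs over 0.1, r from -0.61 to 0.43, 0 arrays closest to their own number), and the main fit used no pairing. With so few arrays per age, this check cannot exclude a processing step shared by arrays of the same number. Low signal limits Rpsa 1416196_at, which a filter on low values removed.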
